A study of Homo sapiens with 18 samples.

Results

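The hypoxia and glycolysis response genes described here are 33 genes that cells commonly use when oxygen is short or when glucose is burnt to lactate. They were taken from a list of names without a cut on measured values, though earlier results of these data were known when it was chosen. Each gene was read through the probe set that maps to it alone and has the highest mean over the 18 arrays. Of the 33 genes, 32 had such a probe set among 19775 genes that did, and 31 passed the filter on low values (a log2 value over 4 on at least 3 arrays), among 12159 genes in all. CA9 was not analysed here. SLC2A3, a glucose transporter, read between 2.43 and 3.07 and exceeded 4 on no array. EGLN3 passed through its 6 LNCaP arrays and LOX on 7 arrays, while ANGPTL4 exceeded 4 on 11 arrays, EPAS1 and PLOD2 on 15 and ADM on 17. The other 25 tested members exceeded it on all 18.

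The arrays measured messenger RNA in 22Rv1 and LNCaP, established human prostate cancer cell lines, in 6 groups of 3. The first group was 22Rv1 control, whose treatment is labelled vehicle. The second was 22Rv1 transduced with a lentiviral construct carrying the ONECUT2 coding sequence with a tag. A pair of groups were 22Rv1 whose descriptions give a scramble shRNA or a knock-down of ONECUT2. The titles of this pair hold only a short shRNA code and name neither scramble nor ONECUT2. LNCaP cells came as a control, also labelled vehicle, and with the ONECUT2 construct. ONECUT2 is a homeobox transcription factor. The protocol, given alike for every array, names serum, polybrene and puromycin, on which transduced cells were selected as stable lines. The labels do not say whether the vehicle-treated controls carried an empty vector or met puromycin. The labels name no oxygen condition and no batch, and nothing in them states that replicates were grown as separate cultures. All p-values therefore rest on array-to-array spread that could be technical.

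Cells sense oxygen through prolyl hydroxylases, which in its presence mark the alpha subunits of the hypoxia-inducible factors for destruction through the VHL protein. When oxygen falls, the alpha subunits persist, pair with ARNT, bind short DNA motifs and raise genes for glucose uptake, glycolysis, pH control, blood vessel growth and collagen processing. HIF1A is controlled largely through the stability of its protein, which arrays do not measure, and prostate cancer cells are known to draw on the same genes under androgen signalling and other growth signals.

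The core of the hypoxia response element was looked for in RefSeq promoter windows (GRCh38.p14, from 250 bases before a gene's start to 50 after), as the letters ACGTG or GCGTG on either strand. Windows were found for 30 of the 33 listed genes, not for VEGFA, SLC2A3 or BNIP3L. At least 1 of the letters' forms occurred in 27 of the 30 (90.0%), against 52.4% of 27305 genes with a window. ACGTG occurred in 63.3% of members and 24.9% of all genes, and GCGTG in 63.3% and 40.6%. The palindrome CACGTG counts as ACGTG on both strands, and a gene with several starts counts once, if any of its windows holds the form. The members had 43 windows for 30 genes, and all genes 35116 for 27305. These shares describe genes listed for their hypoxia or glycolysis response and test nothing. Members' windows were also richer in G and C, with a median of 67.1% against 58.3% for all genes, and the part of base composition in these shares was not tested. EGLN3, PGAM1 and P4HA2 had neither form in their windows.

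Stretches of these windows are shown for 4 members that were higher with the ONECUT2 construct in both lines and then for 3 that were lower in both, with the motif in capitals and each stretch written 5′ to 3′ on the gene's strand. They lie at chr2:46297262-46297322 (plus) for EPAS1, chr11:10304944-10305004 (plus) for ADM, chr17:28576908-28576968 (minus) for ALDOC and chr3:48556937-48556997 (minus) for PFKFB4. Those of the lower group lie at chr2:74834044-74834104 (plus) for HK2, chr2:172556045-172556089 (plus) for PDK1 and chr1:8878820-8878880 (minus) for ENO1, and all 7 end before the gene's start. HK2 and PDK1 have more than 1 window, and a stretch of 1 is shown.
EPAS1: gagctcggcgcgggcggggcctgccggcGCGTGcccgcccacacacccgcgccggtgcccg
ADM: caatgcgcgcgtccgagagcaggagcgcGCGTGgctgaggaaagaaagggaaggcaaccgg
ALDOC: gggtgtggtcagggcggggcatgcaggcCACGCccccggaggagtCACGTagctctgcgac
PFKFB4: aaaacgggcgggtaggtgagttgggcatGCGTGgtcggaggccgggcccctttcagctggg
HK2: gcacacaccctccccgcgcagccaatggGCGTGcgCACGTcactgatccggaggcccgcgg
PDK1: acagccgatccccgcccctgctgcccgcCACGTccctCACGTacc
ENO1: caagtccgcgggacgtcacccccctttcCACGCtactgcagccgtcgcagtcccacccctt
The motif thus stands upstream of members that rose and of members that fell. A match describes letters only, and no binding was measured.

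Array medians ran from 3.26 to 3.34 on the log2 scale, with 38.3% to 40.0% of all probe sets over 4, and the number of arrays limits the precision. Replicate 1 of LNCaP overexpression stood apart from the other arrays of its group by correlation (mean 0.978, against 0.985 and 0.988 for replicates 2 and 3). Results in LNCaP are given with and without it where it matters. Estimated array weights, which did not reach their tolerance, were lowest for replicate 3 (0.0355), followed by replicate 1 (0.0571). In the arrays labelled ONECUT2 shRNA the gene-level ONECUT2 probe set read 8.46, 9.0 and 9.12, above the 6.63, 6.71 and 7.08 of the arrays labelled scramble (log2 change 2.05 ± 0.16, adjusted p = 7.33e-08), which goes against the label. In 22Rv1 control it read 8.24, 8.15 and 8.25, so the scramble arrays also lay below control (-1.41 ± 0.16, adjusted p = 8.84e-06). Of the 3 other tested ONECUT2 probe sets, 2 were likewise higher in the arrays labelled shRNA than in scramble, by 1.97 and 1.74, and the third, under 4 in both groups, gives no change. In 22Rv1 overexpression the gene-level probe set and those 2 changed by 0.54, 1.16 and -0.97, all called, and in LNCaP the gene-level one and the first of the 2 changed by 0.66 and 0.53, also called. The third lay under 4 in both control groups and read 4.78, 4.14 and 4.21 in 22Rv1 and 5.23, 7.17 and 7.43 in LNCaP overexpression. Where on the transcript each lies, and so which can read the construct, is not given in the sources used here. Whether the scramble and shRNA labels were exchanged was not tested. Endothelial and leukocyte markers (7 and 5 with a probe set) exceeded 4 on all 3 arrays of no group, and 6 of 7 prostate epithelial markers did so in every 22Rv1 group and 7 of 7 in the LNCaP groups. In these bulk samples fewer cells of a type and less RNA per cell cannot be told apart.

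The first comparison asked how the members differ when ONECUT2 is overexpressed in 22Rv1. A gene was called when its adjusted p in limma was under 0.05. Of the 31 members, 12 (38.7%) were called higher and 8 (25.8%) lower, against 36.5% and 24.3% of all genes tested (60.8% in either direction), so the members were called about as often as other genes in either direction. Their median log2 change was 0.12 and that of all genes 0.10. A rule of a change of at least 1 on the log2 scale and groups that do not overlap was passed by 8 of the 31 members (25.8%), 7 higher and 1 lower. Of all genes 23.8% passed it, 14.8% higher and 8.98% lower, so the members' share was near the background. Single members differed, with large rises in EPAS1, ADM, P4HA2 and ALDOC beside level or lower values in most enzymes of glycolysis.

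In LNCaP with the construct, 10 members (32.3%) were called higher and 9 (29.0%) lower, LOX with all 6 arrays under 4 among them, against 34.1% and 28.0% of all genes (62.2% in either direction). Their median change was -0.06 and that of all genes 0.09. The same size rule was passed by 7 of the 31 members, 5 higher and 2 lower. Of all genes 24.5% passed it, 13.2% higher and 11.2% lower, so the members' share was again near the background. Without replicate 1 of LNCaP overexpression 13 members were called higher and 11 lower, while 8837 of all genes tested were called in place of 7557. The cell proliferation genes moved with both overexpression groups, and their part in these results was not tested: of 7, 7 were lower in 22Rv1 and 6 in LNCaP, and their summed linear level was 6836.5 to 7891.2 against 26145.9 to 28511.0 in 22Rv1 control, and 5375.5 to 6441.8 against 26990.9 to 27978.0 in LNCaP control. The summed level of the prostate epithelial markers was 25915.9 to 26752.9 against 18534.0 to 18568.6 in 22Rv1 and 22395.6 to 24785.8 against 31601.3 to 32636.4 in LNCaP. These sums hide opposite moves, with 3 of 7 called higher and 3 lower in 22Rv1 and 2 and 3 in LNCaP, KLK3 falling by 3.02 ± 0.67 (adjusted p = 0.00116) and 6.68 ± 0.67 (adjusted p = 4.93e-07).

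**Figure D1:**
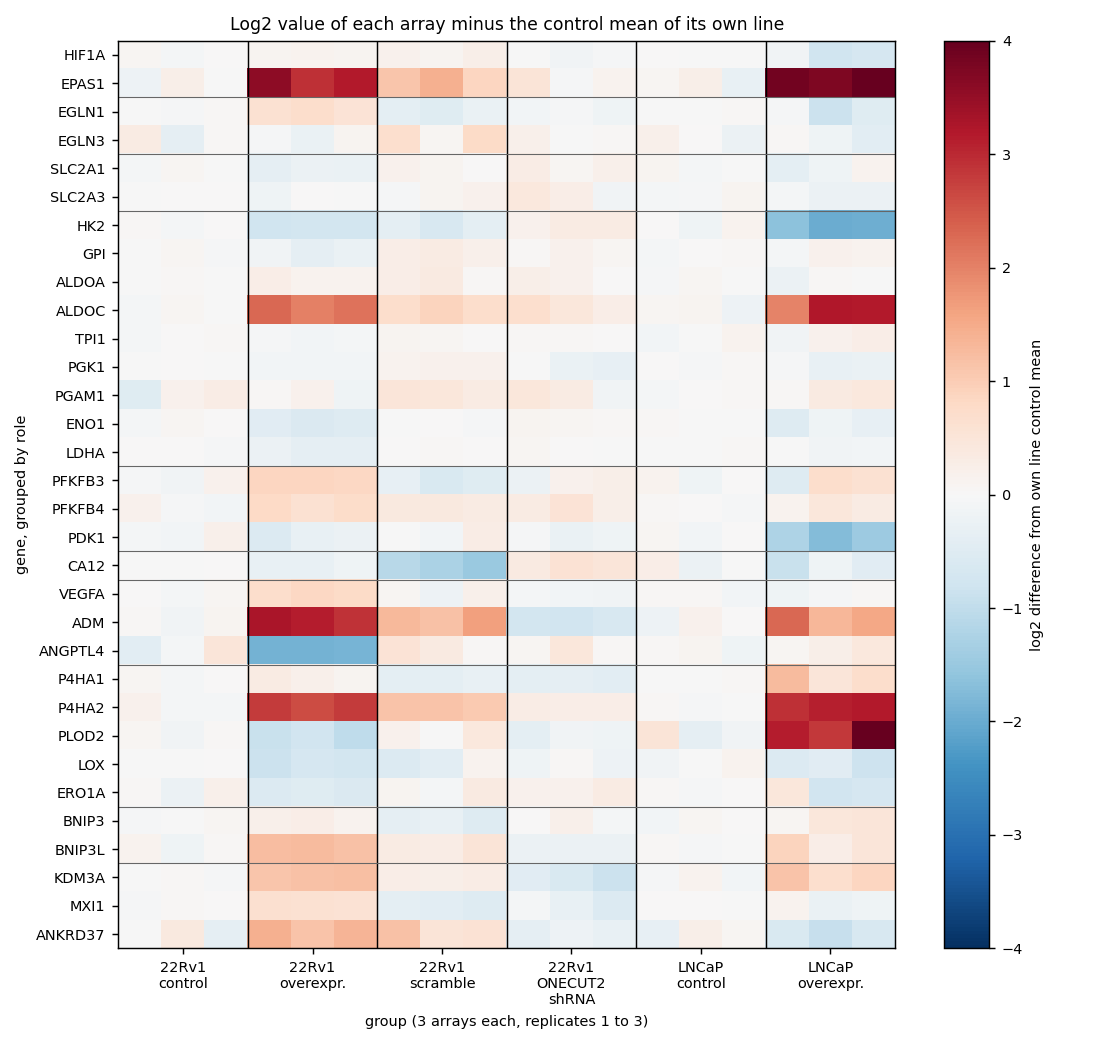
Log2 value of each member on each of the 18 arrays, minus the mean of the 3 control arrays of its own line, for the 32 members with a probe set in rows by role and arrays in columns by group (red higher, blue lower). EPAS1, ADM, P4HA2 and ALDOC are higher in both overexpression groups, and PLOD2 is lower in 22Rv1 and higher in LNCaP.

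Among the oxygen-regulated factors, EPAS1, which encodes the alpha subunit of hypoxia-inducible factor 2, rose in both lines while HIF1A did not. EPAS1 read 4.66, 5.11 and 4.87 in 22Rv1 control and 8.45, 7.82 and 8.04 in overexpression. The groups do not overlap, and the rise was 9.32-fold (log2 change 3.22 ± 0.21, adjusted p = 1.69e-09). In LNCaP control it read 3.13, 3.29 and 2.75, all under 4, against 6.93, 6.78 and 7.14 with the construct. LNCaP overexpression was therefore at least 7.73-fold higher (adjusted p = 9.95e-11). Since the LNCaP change is only a lower bound, the sizes in the lines were not compared. The EPAS1 rise in both lines rests on the gene-level probe set alone. Its other probe sets read 2.5 to 2.9 and 2.2 to 2.7 over all arrays, under 4 throughout, so they give no change.

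HIF1A moved little by comparison. It read 12.98, 12.82 and 12.90 in 22Rv1 control and 13.00, 13.03 and 13.02 in overexpression, a change of 0.12 ± 0.11 that was not called (adjusted p = 0.377). LNCaP arrays read 13.27, 13.25 and 13.25 in control and 13.10, 12.45 and 12.58 with the construct, and HIF1A fell by 0.54 ± 0.11 (adjusted p = 0.000497). Replicate 1 was the highest of the 3, and without it the fall was 0.74 on the log2 scale. The difference of the changes between lines was -0.66 ± 0.16 (adjusted p = 0.00295).

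The oxygen sensors are the prolyl hydroxylases themselves, which are also targets of the factors they limit. EGLN1, the main hydroxylase of HIF1A, read 11.61, 11.58 and 11.66 in 22Rv1 control and 12.24, 12.33 and 12.16 in overexpression, higher by 0.62 ± 0.13 (adjusted p = 0.000737). In LNCaP it went the other way, from 11.81, 11.81 and 11.86 to 11.78, 10.98 and 11.33, lower by 0.46 ± 0.13 (adjusted p = 0.00644), with replicate 1 close to the controls. The fall was 0.67 without replicate 1 and 0.27 without replicate 2, called both times. All 3 tested EGLN1 probe sets were higher in 22Rv1, 2 of them called, and all 3 were lower in LNCaP, 2 of them called. EGLN3, a hydroxylase strongly induced by hypoxia in many cells, lay under 4 in every 22Rv1 group, between 2.70 and 3.82. Its LNCaP arrays read 4.98, 4.77 and 4.54 in control and 4.80, 4.58 and 4.33 with the construct, which overlap (change -0.19 ± 0.20, adjusted p = 0.422).

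Glucose enters through SLC2A1 among other transporters and is trapped by hexokinases, and neither SLC2A1 nor HK2 rose. SLC2A1 read 6.12, 6.27 and 6.15 in 22Rv1 control and 5.84, 5.96 and 5.91 with the construct (change -0.28 ± 0.13, adjusted p = 0.0686). Its LNCaP values were 6.88, 6.71 and 6.75 against 6.40, 6.62 and 6.92, groups that overlap (-0.13 ± 0.13, adjusted p = 0.377). Neither passed the test.

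HK2, the hexokinase isoform induced in many tumours, fell in both lines. It read 11.12, 10.99 and 11.07 in 22Rv1 control and 10.28, 10.34 and 10.34 with the construct, a fall of 1.67-fold (log2 change -0.74 ± 0.11, adjusted p = 1.89e-05). In LNCaP it read 10.82, 10.63 and 10.95 against 9.16, 8.82 and 8.86, a fall of 3.62-fold (-1.86 ± 0.11, adjusted p = 3.67e-10). All overexpression arrays lay below all controls of their line, and the fall was larger in LNCaP by 1.12 ± 0.15 (adjusted p = 2.52e-05). Another tested HK2 probe set lay under 4 on all 22Rv1 arrays, so it gives no change there. With the mean of all its probe sets HK2 changed by -0.14 in 22Rv1, which was not called. In LNCaP that probe set fell from 4.76, 4.76 and 4.27 to values under 4 (adjusted p = 1.52e-06).

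The 9 glycolytic enzymes from hexokinase to lactate dehydrogenase held 1 riser, the fall of HK2 given above and smaller falls. In 22Rv1 1 of 9 was called higher and 4 lower, against 36.5% and 24.3% of all genes, and in LNCaP 1 and 3, against 34.1% and 28.0%, where without replicate 1 GPI, TPI1 and LDHA were called as well, at 0.16, 0.22 and -0.12. The riser was ALDOC, the aldolase isoform best known from brain. It read 6.94, 7.08 and 7.01 in 22Rv1 control and 9.31, 9.02 and 9.18 with the construct, 4.46-fold higher (2.16 ± 0.24, adjusted p = 8.09e-07). LNCaP arrays read 6.88, 6.91 and 6.61 against 8.78, 10.01 and 9.97, 6.91-fold higher (2.79 ± 0.24, adjusted p = 3.73e-08). Replicate 1 was the lowest of the LNCaP overexpression arrays, and without it the change was 3.19. ALDOA, the broadly expressed aldolase, changed by 0.17 ± 0.09 in 22Rv1 and -0.07 ± 0.09 in LNCaP, neither called, although the 22Rv1 groups do not overlap, and the 22Rv1 sign depends on the scaling.

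The other enzymes moved little at their gene-level probe sets. ENO1, the common enolase, read 13.02, 13.16 and 13.10 in 22Rv1 control and 12.65, 12.51 and 12.58 with the construct (-0.51 ± 0.07, adjusted p = 8.67e-06). Its LNCaP values were 13.31, 13.26 and 13.27 against 12.76, 13.10 and 12.96 (-0.34 ± 0.07, adjusted p = 0.000454). LDHA, which turns pyruvate into lactate, read 13.87, 13.88 and 13.81 against 13.62, 13.51 and 13.49 in 22Rv1 (-0.31 ± 0.05, adjusted p = 1.90e-05). Both genes were thus lower on every overexpression array than on any control array, except LDHA in LNCaP, which read 14.00, 13.98 and 14.04 against 13.99, 13.87 and 13.91 and was not called (-0.09 ± 0.05, adjusted p = 0.114). GPI, the isomerase after hexokinase, was lower in 22Rv1 by 0.26 ± 0.07 (adjusted p = 0.00631), and PGK1, the kinase that makes the first ATP of the pathway, was lower in LNCaP by 0.21 ± 0.07 (adjusted p = 0.0189), a call lost without control replicate 3 (-0.19) or overexpression replicate 2 (-0.16) or 3 (-0.18). TPI1 and PGAM1 were called in neither line, with changes between -0.08 and 0.28.

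Probe sets of 1 enzyme did not always match in size. Of the 3 tested for ENO1, the brightest changed by -0.51 in 22Rv1 overexpression, and the others by -3.23 (adjusted p = 1.73e-08) and -1.08 (adjusted p = 3.35e-05). The one with the largest change read 10.78, 10.37 and 10.90 in control and 8.21, 6.80 and 7.35 with the construct. In LNCaP the same probe sets changed by -0.34, -0.47 and -0.30, and only the brightest was called. A probe set of TPI1 likewise fell by 0.78 in 22Rv1 (adjusted p = 8.54e-05), where the gene-level one changed by -0.08. Another PGK1 probe set read 9.62, 9.59 and 9.67 in 22Rv1 control and 8.91, 9.11 and 9.09 with the construct. In LNCaP it read 10.02, 9.90 and 9.93 against 9.46, 9.32 and 9.18. A further PGK1 probe set was also lower on every overexpression array than on any control array in both lines. For actin, the 3' control probe set exceeded the 5' one by 7.28 to 8.65 in 22Rv1 overexpression and by 3.82 to 4.58 in its control, while the 5' GAPDH control probe set read 13.95 to 14.26 against 14.32 to 14.38 and the 3' one 13.60 to 13.68 against 13.59 to 13.77. Their part in the differences among probe sets was not tested.

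**Figure D2:**
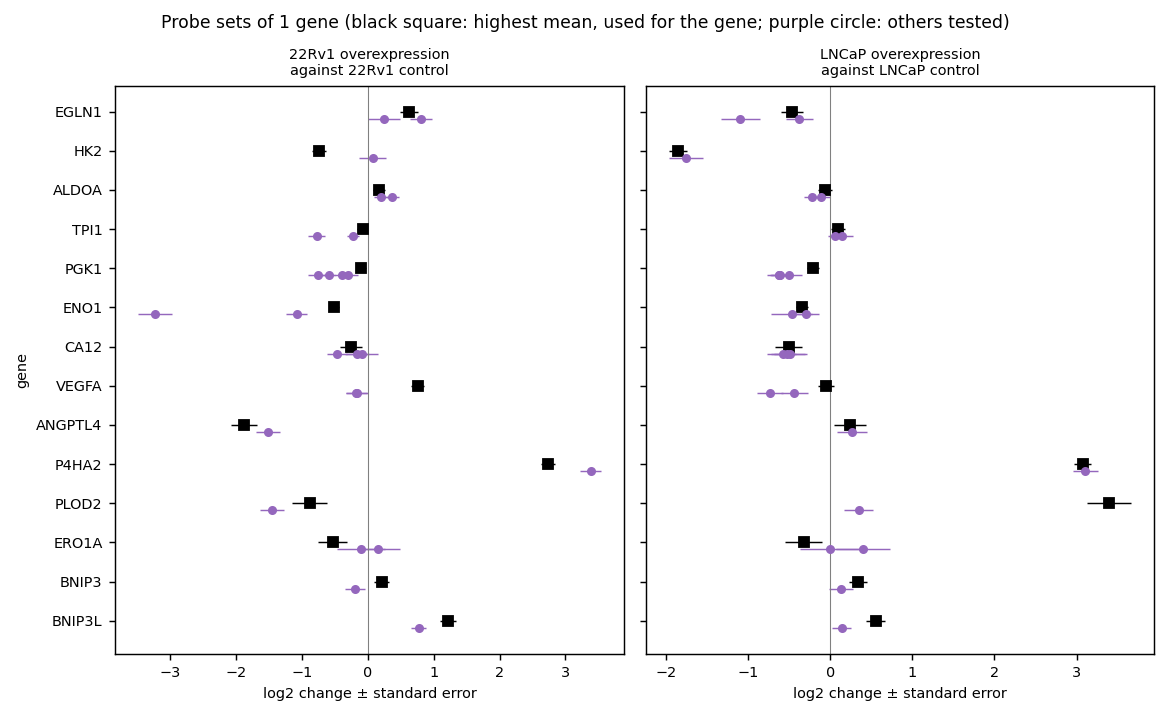
Log2 change ± standard error of every tested probe set of the members with more than 1 tested, for each overexpression comparison, with a black square for the probe set used for the gene and purple circles for the others. ENO1, VEGFA, HK2 and PLOD2 show the widest spreads among probe sets, and those of P4HA2 lie at 2.73 and 3.38 in 22Rv1 and 3.07 and 3.11 in LNCaP.

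The 3 switches of flux set how much glucose carbon flows on to lactate or to the mitochondria, and they moved apart. PFKFB3 and PFKFB4 make the sugar phosphate that speeds phosphofructokinase. PFKFB3 read 9.01, 8.92 and 9.22 in 22Rv1 control and 9.91, 9.91 and 9.88 with the construct, higher by 0.84 ± 0.24 (adjusted p = 0.00554). In LNCaP it read 9.35, 9.04 and 9.22 against 8.68, 9.92 and 9.82, where replicate 1 lay below every control and the others above, and the change of 0.27 ± 0.24 was not called. Without replicate 1 it was 0.67 and called (adjusted p = 0.000173). PFKFB4 was higher by 0.72 ± 0.12 in 22Rv1 (adjusted p = 5.56e-05) and by 0.30 ± 0.12 in LNCaP (adjusted p = 0.0341), a call in LNCaP that was lost without any 1 of the 3 controls or without overexpression replicate 2 or 3, at 0.23 to 0.39 over all fits without 1 array.

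PDK1, the kinase that closes pyruvate dehydrogenase and so the way into the mitochondria, fell in both lines. It read 10.37, 10.17 and 10.29 in LNCaP control and 9.05, 8.53 and 8.83 with the construct, a fall of 2.77-fold (-1.47 ± 0.15, adjusted p = 2.89e-07). In 22Rv1 it read 8.40, 8.38 and 8.69 against 7.94, 8.20 and 8.25 (-0.36 ± 0.15, adjusted p = 0.0455). The LNCaP groups lie more than 1 unit apart, whereas the 22Rv1 call was lost without control replicate 1 or 3 or overexpression replicate 1 or 2, at -0.40 to -0.26. The change in LNCaP was larger by 1.11 ± 0.21 (adjusted p = 0.000460).

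Of the secreted factors, adrenomedullin (ADM), a vasodilator peptide, had the second largest rise of any member in 22Rv1. It read 5.12, 4.95 and 5.18 in control and 8.34, 8.23 and 7.97 with the construct, 8.56-fold higher (3.10 ± 0.20, adjusted p = 2.03e-09). LNCaP arrays read 3.91, 4.28 and 4.13 against 6.39, 5.44 and 5.65, 3.29-fold higher (1.72 ± 0.20, adjusted p = 1.63e-06) and 1.44 without replicate 1, the highest of the 3. Both lines thus rose with no overlap, and the fitted rise was larger in 22Rv1 (difference -1.38 ± 0.28, adjusted p = 0.000952). LNCaP control lay close to the floor of 4, with 1 array under it, and the part of this in the size of the LNCaP rise was not tested.

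VEGFA, the main angiogenic growth factor, depended on the probe set. The gene-level one read 10.70, 10.61 and 10.77 in 22Rv1 control and 11.39, 11.51 and 11.46 with the construct, higher by 0.76 ± 0.10 (adjusted p = 5.90e-06). Its other tested probe sets changed by -0.18 and -0.17 there, neither called, and the mean of all probe sets changed by -0.08. In LNCaP the gene-level one read 10.07, 10.06 and 9.92 against 9.84, 9.98 and 10.07 (-0.06 ± 0.10, adjusted p = 0.646), while the others fell by 0.73 (adjusted p = 0.000856) and 0.44 (adjusted p = 0.0306). A rise in 22Rv1 was therefore read by 1 of 3 probe sets, and no probe set rose in LNCaP.

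ANGPTL4, a secreted inhibitor of lipoprotein lipase, was the one member with a large fall in 22Rv1. It read 5.46, 5.82 and 6.38 in control and 4.01, 4.0 and 4.01 with the construct, a fall of 3.68-fold (-1.88 ± 0.19, adjusted p = 4.06e-07) to the level used here as the floor. In LNCaP all 6 arrays lay under 4, between 2.22 and 2.80, so no change could be read there.

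The collagen and secretory oxidation genes held both the steadiest rise and the widest gap between lines. P4HA2, a subunit of the prolyl hydroxylase that stabilises collagen, read 6.28, 6.03 and 6.03 in 22Rv1 control and 8.90, 8.73 and 8.91 with the construct, 6.65-fold higher (2.73 ± 0.11, adjusted p = 9.52e-12). Its LNCaP values were 7.30, 7.21 and 7.23 against 10.17, 10.37 and 10.42, 8.41-fold higher (3.07 ± 0.11, adjusted p = 4.44e-13). The groups are far apart in both lines, a second probe set rose by 3.38 and 3.11, and the lines did not differ by the test (0.34 ± 0.15, adjusted p = 0.0748), although without replicate 1 of LNCaP overexpression the difference was 0.41 and called (adjusted p = 0.0163). P4HA1, which can fill the same place in the enzyme, changed by 0.21 ± 0.14 in 22Rv1 (adjusted p = 0.194). In LNCaP it read 9.88, 9.87 and 9.95 against 11.16, 10.39 and 10.61, higher by 0.82 ± 0.14 (adjusted p = 8.52e-05) and by 0.60 without replicate 1.

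PLOD2, a lysyl hydroxylase that shapes collagen cross-links, fell in 22Rv1 and rose in LNCaP. It read 11.31, 11.10 and 11.28 in 22Rv1 control and 10.35, 10.47 and 10.22 with the construct (-0.88 ± 0.27, adjusted p = 0.00993). LNCaP control read 3.43, 2.57 and 2.78, all under 4, against 6.08, 5.76 and 7.14, at least 5.00-fold higher (adjusted p = 1.74e-08). A second probe set fell by 1.46 in 22Rv1 (adjusted p = 3.32e-06) and read under 4 on all 6 LNCaP arrays, at 2.73 to 3.48, so it gives no change there. The LNCaP rise therefore rests on 1 probe set, with replicate 3 the highest.

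Genes that are high in 22Rv1 overexpression and low in LNCaP control were also counted on these arrays. Of 66 genes with a mean over 9 in 22Rv1 overexpression and under 4 on every LNCaP control array, thresholds chosen after seeing the data, 33 still read under 4 on LNCaP overexpression replicate 1, 30 on replicate 2 and 6 on replicate 3. Replicate 3, the array with the highest PLOD2 value, also had the fewest of these genes under 4. Replicates 1 and 2 did not follow that order. Genes under 4 on every control array can hardly be seen to fall, and PLOD2 itself meets the rule. The part of the other genes in the PLOD2 rise was not tested. By the fit, stromal markers were called in both directions in the overexpression groups, with 1 higher and 2 lower of 4 tested in each line. Their part was not tested. Their summed linear level over 9 markers was 910.7 to 971.3 against 311.9 to 350.0 in 22Rv1 control and 1719.0 to 4207.2 against 321.9 to 423.4 in LNCaP control. The marker that rose was COL1A1, by 2.12 ± 0.28 (adjusted p = 6.40e-06) and 3.64 ± 0.28 (adjusted p = 1.14e-08). LUM and COL3A1 fell in 22Rv1 to values under 4, with control at least 3.14-fold and 1.29-fold higher (adjusted p = 1.46e-10 and 0.000669). In LNCaP LUM and COL3A1 lay under 4 on all 6 arrays, so no fall can be read there, and ACTA2 overlapped between the groups. Of the 9 markers, 7 in 22Rv1 overexpression and 6 in LNCaP overexpression exceeded 4 on no array. LOX, the oxidase that cross-links collagen, read 4.37, 4.35 and 4.40 in 22Rv1 control and 3.51, 3.70 and 3.66 with the construct, so control was at least 1.30-fold higher (adjusted p = 0.000514), and in LNCaP all 6 arrays were under 4. ERO1A, an oxidase of the endoplasmic reticulum, was called in neither line (-0.53 ± 0.23, adjusted p = 0.0520 in 22Rv1, called at -0.66 without control replicate 2, and -0.32 ± 0.23 in LNCaP). LNCaP arrays read 10.69, 10.58 and 10.65 against 11.10, 9.89 and 9.96, with replicate 1 above and the others below all controls, and without replicate 1 it fell by 0.72 (adjusted p = 2.77e-05). In 22Rv1 another ERO1A probe set overlapped between the groups. A further one read 5.73, 5.63 and 5.62 in control and slightly higher with the construct, at 5.78, 5.94 and 5.74.

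**Figure D3:**
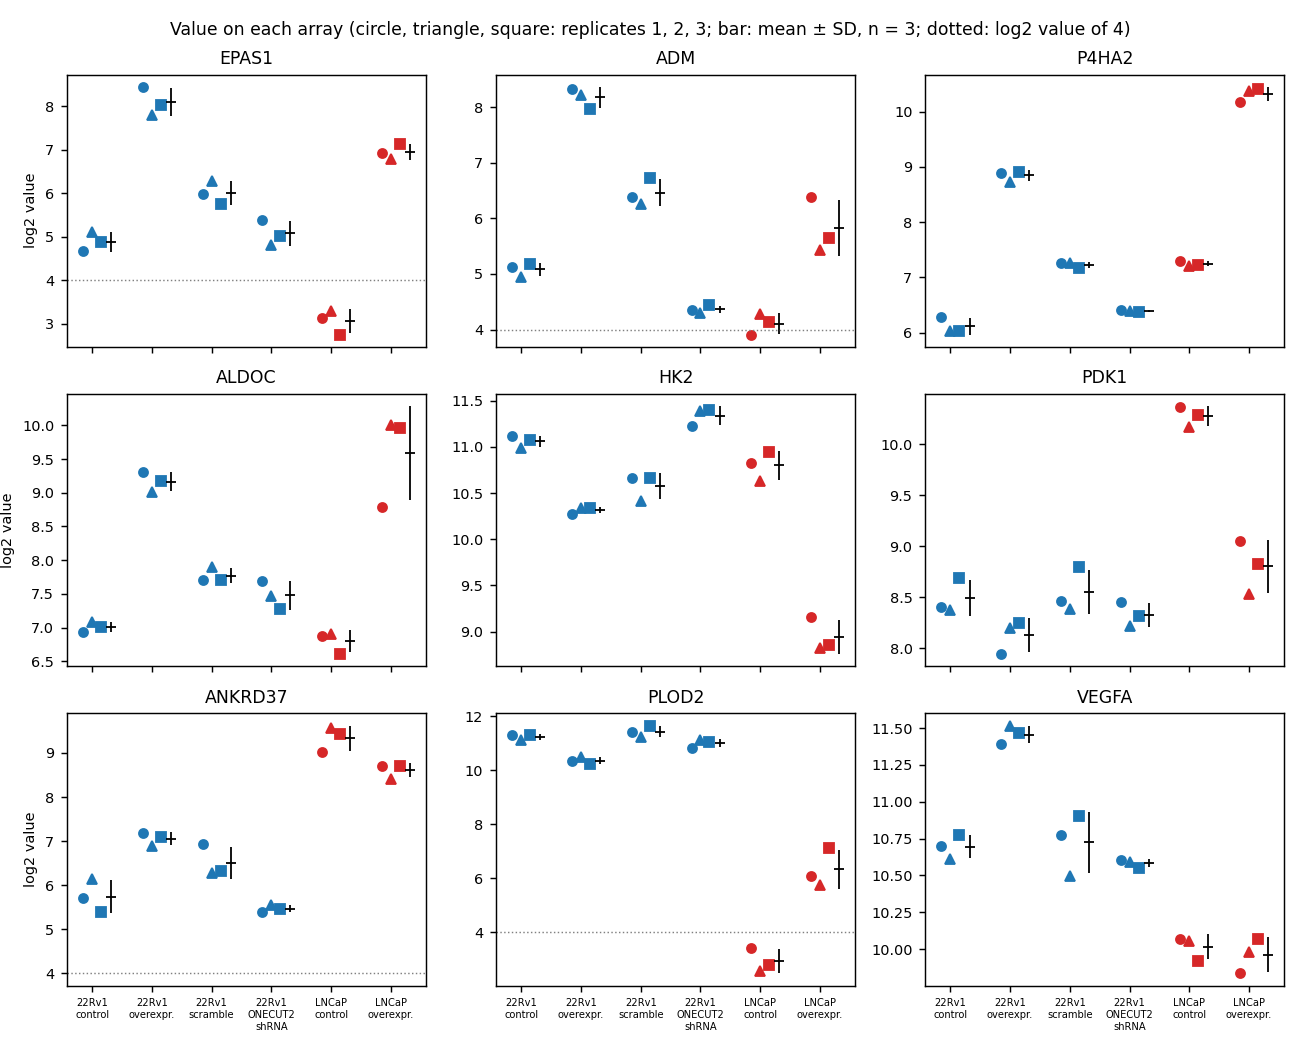
Log2 value on each array of 9 members in the 6 groups, with circle, triangle and square for replicates 1, 2 and 3 and a bar for mean ± SD (n = 3). The dotted line, drawn where a gene comes near it, is the log2 value 4 used as the floor. Replicate 1 of LNCaP overexpression is apart for ALDOC and ADM, and PLOD2 lies under 4 only in LNCaP control.

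The mitophagy receptors BNIP3 and BNIP3L, which mark mitochondria for removal, rose mainly as BNIP3L. It read 11.34, 11.03 and 11.24 in 22Rv1 control and 12.43, 12.48 and 12.37 with the construct, 2.33-fold higher (1.22 ± 0.12, adjusted p = 2.23e-07). Its LNCaP values were 11.25, 11.15 and 11.20 against 12.09, 11.48 and 11.69, higher by 0.55 ± 0.12 (adjusted p = 0.000777) with no overlap. Another BNIP3L probe set rose in 22Rv1 without overlap. In LNCaP that probe set read 10.21, 10.311 and 10.253 against 10.655, 10.193 and 10.337, which overlap. BNIP3 changed by 0.21 ± 0.11 in 22Rv1 (adjusted p = 0.108) and by 0.33 ± 0.11 in LNCaP (adjusted p = 0.0144), where the groups overlap and the call was lost without LNCaP control replicate 1 or overexpression replicate 2 or 3, at 0.25 to 0.47. Another BNIP3 probe set went lower in 22Rv1, from 9.72, 9.61 and 9.77 to 9.65, 9.36 and 9.51, and its groups overlap in both lines.

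All 3 nuclear targets rose in 22Rv1, where 36.5% of all genes did, and 1 of them, the histone demethylase KDM3A, was called higher in LNCaP, where 34.1% of all genes were. KDM3A read 9.31, 9.35 and 9.28 in 22Rv1 control and 10.43, 10.48 and 10.51 with the construct, 2.23-fold higher (1.16 ± 0.12, adjusted p = 4.84e-07). In LNCaP it read 8.71, 8.88 and 8.65 against 9.89, 9.41 and 9.60, 1.85-fold higher (0.89 ± 0.12, adjusted p = 9.38e-06). MXI1, an antagonist of MYC, was higher by 0.61 ± 0.11 in 22Rv1 (adjusted p = 0.000197) and changed by -0.10 ± 0.11 in LNCaP, a fall of 0.22 and called without replicate 1 (adjusted p = 0.0479).

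ANKRD37, a small ankyrin-repeat protein and a well known hypoxia target, rose in 22Rv1 and fell in LNCaP. It read 5.71, 6.13 and 5.38 in 22Rv1 control and 7.18, 6.90 and 7.10 with the construct, 2.49-fold higher (1.31 ± 0.20, adjusted p = 3.29e-05). LNCaP arrays read 9.01, 9.56 and 9.42 against 8.72, 8.42 and 8.70, lower by 0.72 ± 0.20 (adjusted p = 0.00546). Neither pair of groups overlaps. The carbonic anhydrase CA12, which helps to export acid, changed by -0.25 ± 0.17 in 22Rv1 (adjusted p = 0.200) and was lower by 0.51 ± 0.17 in LNCaP (adjusted p = 0.0138), where the groups overlap and the call was lost without overexpression replicate 1 (-0.32, adjusted p = 0.0567) or control replicate 1 (-0.37, adjusted p = 0.0819).

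**Figure D4:**
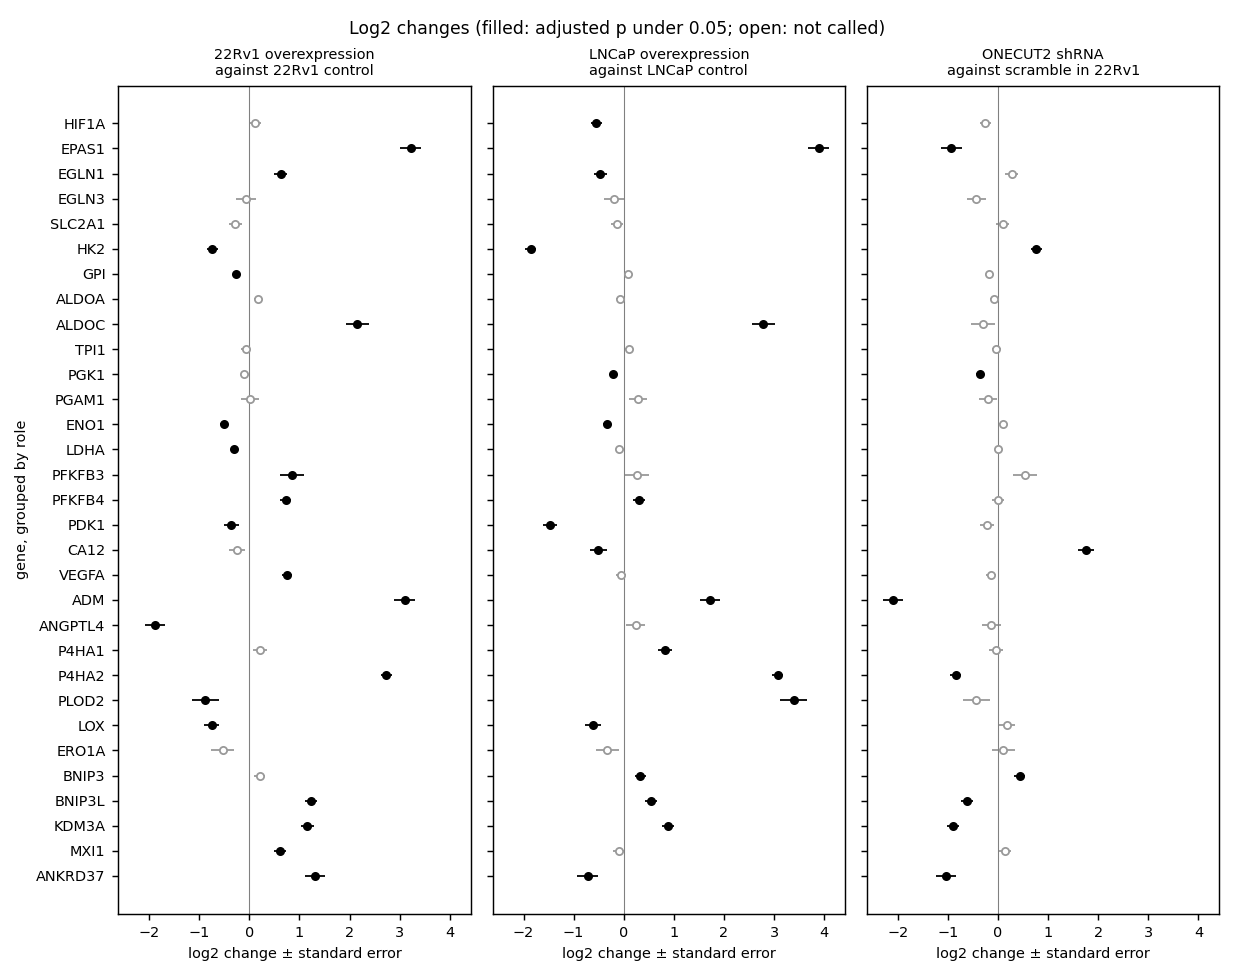
Log2 change ± standard error of the 31 tested members in overexpression against control in 22Rv1 and in LNCaP and in ONECUT2 shRNA against scramble, by role, with filled points for an adjusted p under 0.05. The changes run from -1.88 to 3.22, from -1.86 to 3.89 and from -2.09 to 1.76.

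Set side by side, 7 members were called higher in both lines (ADM, ALDOC, BNIP3L, EPAS1, KDM3A, P4HA2 and PFKFB4), against 21.8% of all genes, and 4 lower in both by the fit (ENO1, HK2, PDK1 and LOX), against 14.1%. LOX lay under 4 on all 6 LNCaP arrays, so its fall there cannot be read, and 3 remain. ANKRD37 and EGLN1 were higher in 22Rv1 and lower in LNCaP, against 3.13% of all genes, and PLOD2 was lower in 22Rv1 and higher in LNCaP, against 2.43%. In 22Rv1 alone MXI1, PFKFB3 and VEGFA were called higher and ANGPTL4, GPI and LDHA lower, against 11.6% and 7.71%, and in LNCaP alone BNIP3 and P4HA1 higher and CA12, HIF1A and PGK1 lower, against 9.91% and 10.8%. These calls are of the gene-level probe sets. Another probe set of BNIP3L overlapped between the LNCaP groups, and others of PGK1 were also lower in 22Rv1. None of ALDOA, EGLN3, ERO1A, PGAM1, SLC2A1 and TPI1 was called in either line, against 18.5%. The test of the difference between lines called 5 members with a higher change in LNCaP and 10 with a lower one, against 18.1% and 26.6% of all genes (44.7% in either direction), with a median of -0.11 for members and -0.10 for all genes. Without replicate 1 of LNCaP overexpression the first count was 9 and the second 10, with KDM3A in and PFKFB4 out of the lower ones.

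**Figure D5:**
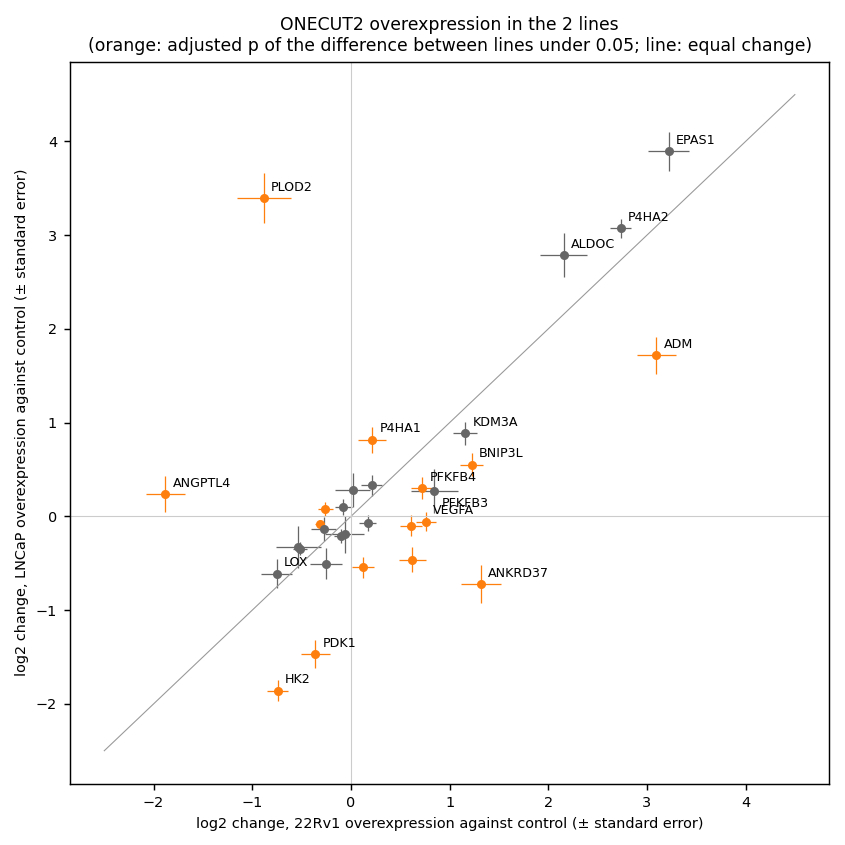
Log2 change with the ONECUT2 construct in 22Rv1 (x axis) against that in LNCaP (y axis) for the 31 tested members, with standard errors, the line of equal change, and in orange the 15 members whose difference between lines had an adjusted p under 0.05. EPAS1, P4HA2 and ALDOC lie at the upper right in grey and ADM in orange, with HK2 and PDK1 at the lower left and PLOD2 at the upper left. The LNCaP positions of EPAS1, PLOD2, ANGPTL4 and LOX are fitted to groups under 4.

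Related members were also set against each other within each array, which cancels any scaling of a whole array. EPAS1 gained 3.10 on HIF1A in 22Rv1 on the log2 scale, with no exact gain in LNCaP, where control EPAS1 lay under 4. P4HA2 gained 2.52 and 2.25 on P4HA1, ALDOC gained 1.99 and 2.86 on ALDOA, and BNIP3L gained 1.01 and 0.22 on BNIP3. In 7 of the 8 comparisons the 3 overexpression arrays lay above the 3 controls, and the exception was BNIP3L in LNCaP. An exact two-sided permutation test of 3 arrays against 3 cannot go below p = 0.1, the value reached in those 7 (adjusted p = 0.12 over 12 such tests), so this design cannot pass 0.05.

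Genes of the same pathways that are not members were also called in both directions. Their counts stand beside 36.5% higher and 24.3% lower over all genes in 22Rv1, and 34.1% and 28.0% in LNCaP. Of 29 other genes of the hypoxia-inducible factor pathway, 12 were called higher and 9 lower in 22Rv1, and 8 and 7 in LNCaP. TGFA, a growth factor of the EGF family, read 6.07, 5.56 and 6.05 in 22Rv1 control and 9.64, 9.91 and 9.77 with the construct (3.88 ± 0.16, adjusted p = 1.29e-11). It rose by 3.16 ± 0.16 in LNCaP (adjusted p = 4.14e-11). VHL itself, which targets the factors for destruction, fell by 1.30 ± 0.15 in 22Rv1 (adjusted p = 1.57e-06), and NDRG1, a stress-induced gene often used as a hypoxia marker, fell by 2.76 ± 0.15 in LNCaP (adjusted p = 1.10e-10).

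Of 22 other glycolysis and lactate genes, 10 were called higher and 7 lower in 22Rv1, and 7 and 6 in LNCaP. ENO2, the neuronal enolase, read 3.45, 3.14 and 2.93 in LNCaP control, all under 4, and 7.66, 9.02 and 9.06 with the construct (adjusted p = 3.21e-11). PYGL, the liver form of glycogen phosphorylase, rose by 2.35 ± 0.10 in LNCaP (adjusted p = 9.79e-12). In 22Rv1 PKM, the common pyruvate kinase, fell by 1.03 ± 0.16 (adjusted p = 3.52e-05) and BSG, the chaperone of lactate transporters, by 1.41 ± 0.15 (adjusted p = 5.16e-07). SLC2A10, a glucose transporter of the same family as SLC2A1, read 3.20, 3.24 and 3.08 in 22Rv1 control against 6.79, 6.30 and 6.84, at least 6.25-fold higher (adjusted p = 1.05e-09). It was lower in LNCaP with the construct (adjusted p = 1.17e-06), where all 3 overexpression arrays were under 4, so control was at least 1.18-fold higher.

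Downstream of glycolysis, 26 genes of pyruvate entry and the tricarboxylic acid cycle counted 3 higher and 14 lower in 22Rv1, where 24.3% of all genes were lower, and 6 higher and 7 lower in LNCaP. SUCLG1, a subunit of succinyl-CoA ligase, fell by 0.81 ± 0.10 (adjusted p = 2.81e-06) and PDHB, a subunit of pyruvate dehydrogenase, by 0.68 ± 0.09 (adjusted p = 3.84e-06) in 22Rv1. In LNCaP DLAT and PDHX, further subunits of that complex, fell by 1.04 ± 0.09 (adjusted p = 3.54e-08) and 1.08 ± 0.15 (adjusted p = 1.08e-05), while SDHA, a subunit of succinate dehydrogenase, rose by 1.26 ± 0.17 (adjusted p = 6.03e-06). The median change of the list was -0.41 in 22Rv1 and 0.12 in LNCaP.

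The third comparison set the arrays labelled ONECUT2 shRNA against those labelled scramble, with the ONECUT2 discrepancy given above. Of the 31 members 3 (9.7%) were higher and 7 (22.6%) lower in the arrays labelled shRNA, against 13.4% and 16.1% of all genes (29.6% in either direction). Their median change was -0.14 and that of all genes -0.03. ADM, CA12 and ANKRD37 changed by at least 1 on the log2 scale without overlap, 1 higher and 2 lower, against 6.53% of all genes, of which 3.75% higher and 2.78% lower. Of all 31 members, 21 were not called at their gene-level probe sets. For ERO1A, among these 21, another probe set read 9.02, 8.96 and 8.70 in scramble. It read 10.25, 10.11 and 10.07 in the arrays labelled shRNA, while a further ERO1A probe set was lower there.

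ADM read 6.39, 6.26 and 6.73 in scramble and 4.35, 4.30 and 4.44 in the arrays labelled shRNA, 4.27-fold lower (-2.09 ± 0.20, adjusted p = 1.09e-06). CA12 went up, from 5.26, 5.11 and 4.89 to 6.72, 6.94 and 6.86, 3.38-fold higher (1.76 ± 0.17, adjusted p = 8.97e-07), and all 4 of its tested probe sets were called higher, by 0.49 to 2.13. ANKRD37 read 6.93, 6.27 and 6.33 against 5.39, 5.55 and 5.46 (-1.04 ± 0.20, adjusted p = 0.00101). These groups are fully apart.

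EPAS1 read 5.99, 6.29 and 5.75 in scramble and 5.39, 4.82 and 5.02 in the arrays labelled shRNA, lower by 0.93 ± 0.21 (adjusted p = 0.00258). KDM3A was lower by 0.90 ± 0.12 (adjusted p = 3.85e-05), P4HA2 by 0.84 ± 0.11 (adjusted p = 1.86e-05), BNIP3L by 0.62 ± 0.12 (adjusted p = 0.000982) and PGK1 by 0.37 ± 0.07 (adjusted p = 0.00110). Another PGK1 probe set went up, from 9.46, 9.45 and 9.59 to 9.75, 9.70 and 9.91, while its remaining probe sets over 4 were lower. HK2 read 10.66, 10.41 and 10.66 against 11.23, 11.39 and 11.40, higher by 0.76 ± 0.11 (adjusted p = 6.64e-05). With the mean of its probe sets the change was 0.15 and not called, but the other HK2 probe sets lay under 4 on these arrays. BNIP3 was higher by 0.43 ± 0.11 (adjusted p = 0.00630). HIF1A (-0.25), EGLN1 (0.27), EGLN3 (all 6 arrays under 4), VEGFA (-0.14), SLC2A1 (0.09) and LDHA (-0.00) were not called. Of the other lists, 5 of 29 pathway genes were higher and 5 lower, led by IGFBP3 (-2.49 ± 0.15, adjusted p = 5.88e-09) and NDRG1 (1.04 ± 0.15, adjusted p = 6.02e-05). Of the other glycolysis genes 2 of 22 were higher, the phosphofructokinases PFKM (0.95 ± 0.07, adjusted p = 4.46e-08) and PFKP (1.04 ± 0.17, adjusted p = 0.000234), and 5 were lower.

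Several of these members also separated scramble from 22Rv1 control, a comparison that shares the scramble arrays, so the values are given side by side and no overlap is read. Scramble had 8 members (25.8%) higher and 4 (12.9%) lower than control, against 12.5% and 9.40% of all genes, with medians of 0.16 and 0.05. The 6 largest changes were in ADM (1.38 ± 0.20, adjusted p = 0.000128), CA12 (-1.28 ± 0.17, adjusted p = 4.01e-05), EPAS1 (1.13 ± 0.21, adjusted p = 0.000898), P4HA2 (1.12 ± 0.11, adjusted p = 1.48e-06), ANKRD37 (0.77 ± 0.20, adjusted p = 0.0121) and ALDOC (0.76 ± 0.24, adjusted p = 0.0291). The ANKRD37 call was lost without control replicate 3 (0.59) or scramble replicate 1 (0.56), and the ALDOC call without any 1 of the 6 arrays, at 0.70 to 0.80. The count of higher members fell to between 4 and 7 without 1 array and to 4 when arrays were centred on the median of the genes tested, a setting chosen after seeing the data.

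Set directly against 22Rv1 control, the arrays labelled ONECUT2 shRNA had no member called higher in limma and 1 lower, against 2.35% and 2.11% of all genes. That member was KDM3A, which read 9.31, 9.35 and 9.28 in control and 8.86, 8.70 and 8.46 (-0.64 ± 0.12, adjusted p = 0.00642). The call was lost with the mean of its probe sets, but its other probe set lay under 4 on every array and gives no change. The members' median change was 0.05 and that of all genes 0.02.

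At baseline the lines differed in many members. LNCaP control was higher than 22Rv1 control in 14 of 31 and lower in 10, against 30.2% and 33.5% of all genes (63.6% in either direction), with a median of 0.15 for members and -0.04 for all genes. The 6 members with the largest fitted differences, each without overlap, are given here, though a fitted size against a group under 4 sets no order. PLOD2 was at least 150-fold lower in LNCaP (adjusted p = 1.87e-13), ANGPTL4 at least 3.70-fold lower (adjusted p = 1.28e-10) and EPAS1 at least 1.84-fold lower (adjusted p = 8.37e-07). ANKRD37 was 12.0-fold higher (adjusted p = 1.61e-10) and PDK1 3.44-fold higher (adjusted p = 2.17e-08). EGLN3 was at least 1.70-fold higher, as a description only, since it passed the filter through its LNCaP arrays. HIF1A, by contrast, was higher in LNCaP by 0.36 ± 0.11 (adjusted p = 0.0101).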

How the data were processed

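The deposited values are log2 expression values of 54675 probe sets on 18 one-colour Affymetrix U133 Plus 2.0 arrays, made by the authors with GCRMA per the submitters' processing notes. GCRMA corrects background by probe sequence, normalizes between arrays and summarises probe sets. The sources used here give neither its version nor whether the 18 arrays were normalized as 1 set. Probe sets were named through the platform's gene table: 41091 had 1 symbol, 1801 several and 11721 none, beside 62 controls. Sequences come from RefSeq (GRCh38.p14).

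All 18 arrays entered 1 model in limma 3.58.1 (R 4.3.3) with 6 group means, 12 residual degrees of freedom, and trend and robust moderation. Benjamini-Hochberg adjustment covered the 12159 genes of each comparison. The script was tested on simulated data. Log2 changes are given with the model's standard error. If no array of the lower group exceeded 4, the change is given as at least the higher mean minus 4. Other probe sets come from a fit of all probe sets.

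The members and lists were chosen with earlier results of these data known. Named were members called with a log2 change of at least 1 and no overlap, HIF1A, EPAS1, EGLN1, EGLN3, VEGFA, CA9, SLC2A1 and LDHA always, others by role, the 6 largest calls in the remaining comparisons, and up to 2 rises and 2 falls per list by smallest p. Members described by role outside that rule are named for their role. Alternatives changed the scaling, the filter, the probe set rule, the moderation, the arrays fitted, array weights and the replicate block, and left out each array in turn.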

Additional observations from a re-analysis of the deposited data

Results flagged for a closer look

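The test of the difference between lines (change in LNCaP minus change in 22Rv1, limma over 12159 genes) passed in 15 of 31 members, against 44.7% of all genes, so a share near the background. The change was lower in LNCaP for ADM (-1.38), ANKRD37 (-2.03), BNIP3L (-0.67), EGLN1 (-1.09), HIF1A (-0.66), HK2 (-1.12), MXI1 (-0.71), PDK1 (-1.11), PFKFB4 (-0.42) and VEGFA (-0.81). It was higher in LNCaP for ANGPTL4 (2.12), GPI (0.34), LDHA (0.23), P4HA1 (0.60) and PLOD2 (4.28).

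The ANGPTL4 value sets a fall in 22Rv1 against LNCaP arrays that all lie under 4, and the PLOD2 value is fitted to LNCaP control arrays under 4, where the rise is known only as at least 5.00-fold. The PLOD2, VEGFA and BNIP3L values each come from 1 of several probe sets that differ, and the LNCaP control arrays of ADM lay close to 4. The PFKFB4 call (adjusted p = 0.0494) was lost in most of the fits without 1 array, and that of P4HA1 without 22Rv1 overexpression replicate 3 (0.56). Without replicate 1 of LNCaP overexpression the differences of ALDOC (1.03), P4HA2 (0.41), TPI1 (0.29), ENO1 (0.26) and KDM3A (-0.40) also passed, and that of PFKFB4 (-0.33) no longer did.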

How the results depend on the processing

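Of 101 called member results, alternatives were computed for the 77 that the text reports by rule, and 56 of these kept direction and call under every alternative run. Centring arrays on the median of the genes tested, chosen after seeing the data, moved the median change of all genes in 22Rv1 overexpression from 0.10 to -0.07 and that of the difference from -0.10 to 0.11. It gave 13 members lower in 22Rv1 overexpression, 9 higher in the difference, 4 higher in scramble against control and 2 lower in shRNA against control, and it turned HIF1A (-0.0598), ALDOA (-0.00700) and PGAM1 (-0.16) in 22Rv1 overexpression, LDHA in shRNA against scramble (0.0354) and the EGLN3 difference (0.0804). The mean of all probe sets turned VEGFA (-0.0771) and EGLN3 (0.00440) in 22Rv1, ERO1A in LNCaP (0.0233) and the LOX difference (-0.00819), and gave 3 members lower in shRNA against control. Quantile normalization turned VEGFA in LNCaP (0.0560) and also gave 3 there. Of these, only VEGFA in 22Rv1 was called. The causes were not tested.

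Fitting only the groups compared gave 5 members higher in shRNA against scramble, 7 lower in scramble against control (4629 genes called) and 3 higher and 3 lower in shRNA against control (1975 genes). Array weights, whose estimation stopped before its tolerance, gave 5 lower in LNCaP overexpression, 6 higher and 12 lower in shRNA against scramble (6844 genes), 15 higher and 8 lower in scramble against control (6415 genes) and 6 higher and 6 lower in shRNA against control (3416 genes), and turned ALDOA in LNCaP (0.0169).

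Without 1 array, the change ranged from -0.24 to 0.10 for EGLN3 and from -0.23 to 0.17 for PGAM1 in 22Rv1, from -0.13 to 0.0126 for ALDOA and from -0.11 to 0.00797 for VEGFA in LNCaP, from -0.0347 to 0.0183 for LDHA in shRNA against scramble and from -0.29 to 0.0535 for the EGLN3 difference. Members higher in the difference numbered 4 to 9, members higher in scramble against control 4 to 7, and members lower in shRNA against control 1 to 2, with 210 to 503 genes called there.

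Whether the replicate numbers pair the arrays is not settled. In no pair of groups did every same-numbered pair correlate over 0.1, but arrays of different numbers were not compared. Between 22Rv1 control and scramble the correlations were -0.05, 0.43 and 0.34 for replicates 1, 2 and 3. With the replicate number as a block, 12 members were higher and 9 lower in 22Rv1 overexpression, 10 and 9 in LNCaP, 3 and 7 in shRNA against scramble, and 5 and 9 in the difference.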
